A study of Mus musculus with 4 samples.

Results

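The Ccdc genes of the mouse are named for a coiled-coil domain in their product, and the occupancy of their promoters by RFX2 in the testis is described here. The family was taken as the protein-coding genes of the GRCm38 annotation whose symbol is Ccdc and a number, with or without a trailing letter, without Ccdc39, Ccdc40, Ccdc42, Ccdc63, Ccdc65, Ccdc103, Ccdc114 and Ccdc151. There were 131 such genes among 21938 protein-coding genes, 114 with a plain number and 17 with a trailing letter. Occupancy was measured by ChIP-seq, in which chromatin bound by a factor is immunoprecipitated and sequenced, with an RFX2 antibody on decapsulated testes of 2 wild type (WT) mice, beside 2 input samples without immunoprecipitation. The mice were of a mixed C57BL/6, 129/Sv and FVB/N background and 29 to 30 days old per the labels, whereas the text of the study names dissociated germ cells of younger mice. Genotype, strain and age were the same in all 4 samples, which differed only in the immunoprecipitation. The 3 peak lists used are those of replicate 1 (39825 peaks), of replicate 2 (21274 peaks) and a combined list (2726 peaks), and the number of reads behind them is unknown. As the chromatin came from a mixture of testis cells, the cell type in which a site was occupied cannot be told from these lists, which also hold no expression values.

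A coiled coil is a pair or bundle of alpha helices wound around each other, a fold that serves as a rod, spacer or dimerisation surface in many unrelated proteins. The Ccdc symbol is therefore a name given for a predicted structure, and its bearers include parts of the axoneme, centriolar proteins, secreted proteins, mitochondrial proteins and splicing factors. RFX factors activate genes for cilia and, in the testis, for the sperm flagellum, through the X-box, an inverted repeat that is usually found close to the transcription start site (TSS). A promoter was taken as the interval from 1000 bp upstream to 500 bp downstream of any annotated TSS of a gene, and a gene was called an RFX2 target when a combined peak overlapped its promoter by at least 1 bp.

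The X-box was read from the data, using only combined peaks that met no Ccdc promoter. Among all words of 8 bases, ATGGCAAC was the one most in excess at the summits of these 2703 peaks (1045 of the summits against 4 of the windows 1000 bp to the right). Joined with its own reverse complement, it gives the palindrome GTTGCCATGGCAAC of 14 bases, and an X-box was called where 200 bp around a summit held a match to it, in either orientation, with no more than 3 mismatches.

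The sites below carry the Ccdc promoter peaks with the closest matches, with at most 2 mismatches, and that of Ccdc113, the Ccdc target with the highest fold enrichment. Capitals mark the X-box, and 8 reference bases stand on each side. All are read 5′ to 3′ on the strand of the gene, from build GRCm38, whose sequence is that of C57BL/6J and not of these mixed animals.
Ccdc181 (chr1:164275624-164275637, plus strand): ggcgcgctGTTGCCATGGCACCcgggtgct
Ccdc175 (chr12:72185030-72185043, minus strand): gcgtcgtcGTTGCCCTGGCAACagtgttcc
Ccdc13 (chr9:121839481-121839494, minus strand): tggtgacgGTTGCCAAGGCAGCacatgccg
Ccdc157 (chr11:4160270-4160283, minus strand): ggtacgccGTTGCCAAGGCAGCggcctggg
Ccdc30 (chr4:119415498-119415511, minus strand): tgagtgggGTTGCCATGACAGCggctgggc
Ccdc184 (chr15:98167764-98167777, plus strand): acttcctcGTTGCCATGGAGACacacgtca
Ccdc158 (chr5:92675523-92675536, minus strand): cctccctgGTTGCCTTGGCGACggggtagg
Ccdc166 (chr15:75982545-75982558, minus strand): gtcaagccGTTGCCAGAGCAACagaatggg
Ccdc113 (chr8:95534086-95534099, plus strand): agcgttcaGTTGTCTAGGCAACgcgcctca

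The first question was how many Ccdc promoters were occupied. In the combined list 23 of the 131 Ccdc genes were RFX2 targets (17.6%, 95% exact interval 11.5 to 25.2), against 1130 of 21807 other protein-coding genes (5.18%, 4.89 to 5.48), a share 3.39 times as high. Replicate 1 alone had a promoter peak at 42 Ccdc genes (32.1%, 24.2 to 40.8), where 13.9% of the other genes had one. Replicate 2 alone had one at 40 Ccdc genes (30.5%, 22.8 to 39.2), against 11.2% of the other genes. Both animals had one at 33 Ccdc genes (25.2%, 18 to 33.5) and at 8.95% of the other genes. The Ccdc share was thus above that of the other genes in each animal, 2.31 times as high in replicate 1 and 2.74 times in replicate 2. These intervals cover counting error only, genes are not replicates, and no test over genes was made.

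**Figure D1:**
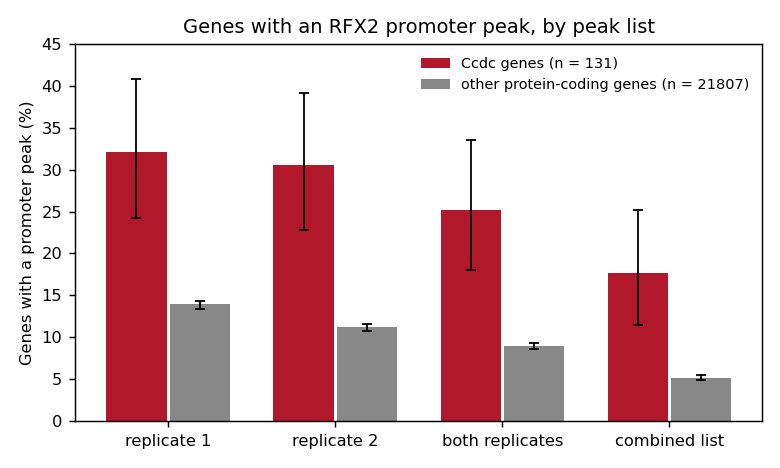
Share of genes with an RFX2 promoter peak (vertical axis, percent) in each peak list, for the 131 Ccdc genes (red) and the 21807 other protein-coding genes (grey). Error bars are 95% exact binomial intervals, and the Ccdc bar is the higher one in each list, at 17.6% against 5.18% in the combined list.

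The 131 genes fell into 5 classes. Next to the 23 targets, 10 genes had promoter peaks in both animals without a combined peak, 9 had one in replicate 1 only, 7 had one in replicate 2 only, and 82 had none in any list. Of the 21807 other protein-coding genes, 18300 had none in any list. The classes with replicate peaks but no combined peak were not counted for other genes, so their sizes cannot be called particular to the Ccdc genes. The lists hold only peaks above the thresholds of the authors, so that no listed peak does not mean no binding. All 23 targets had a promoter peak in both animals, but the combined list draws on the same reads and the study describes keeping peaks that were reproducible between the replicates, so this is no independent check. At all 33 genes with a promoter peak in both animals, a peak of one animal overlapped a peak of the other. This is not particular to the Ccdc genes. Of the other genes, 8.95% had a promoter peak in both animals, and 8.68% had peaks that overlapped each other. Among the 17 genes with a trailing letter, such as the Ccdc85 and Ccdc88 paralogs, 0 were RFX2 targets (exact interval up to 19.5%), and Ccdc102a was the only one with a promoter peak in both animals. Of the 114 genes with a plain number, 23 were targets (20.2%, 13.2 to 28.7). This interval overlaps that of the genes with a trailing letter, which also holds the 5.18% of the other genes.

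A peak can lie between the promoters of neighbouring genes, and the gene it serves is then not given by its position. Of the 23 peaks at Ccdc promoters, 6 also met the promoter of a further protein-coding gene (26.1%, 10.2 to 48.4), as did 155 of 980 promoter peaks elsewhere (15.8%, 13.6 to 18.3). The partners were Rnf40 at Ccdc189, Sf3a1 at Ccdc157, Tada2b at Ccdc96, Fam185a at Ccdc146, Qtrt2 at Ccdc191 and Pkp4 at Ccdc148. Rnf40 encodes a subunit of a histone H2B ubiquitin ligase, Sf3a1 a splicing factor and Tada2b an adaptor of a histone acetyltransferase complex. Leaving such peaks aside, 17 Ccdc genes (13.0%, 7.74 to 20) had a combined peak that met no further protein-coding promoter, against 3.74% of the other genes.

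The targets were then ordered by what their products are known for, in lists drawn up from general knowledge of the genes, with earlier results of these data known. Of 11 genes for the axoneme, the flagellum or the manchette (the microtubule skirt that shapes the spermatid nucleus), 7 were RFX2 targets (63.6%, 30.8 to 89.1). Of the other protein-coding genes, 5.18% were targets. The lists are not exhaustive, and another choice of genes would give another share. Of 13 genes for centrioles, centriolar satellites or basal bodies, 3 were targets (23.1%, 5.04 to 53.8). None of 6 genes with named roles in meiosis, the acrosome or other steps of male germ cells (exact interval up to 45.9%) and none of 29 genes with named roles elsewhere (up to 11.9%) was a target in the combined list. The intervals of the centriole, germ cell and elsewhere lists hold the 5.18% of the other genes. As the lists were drawn up with earlier results known, the intervals set no list apart from that share, the axoneme list included. The 72 genes in no list held the other 13 targets (18.1%, 9.98 to 28.9), so most Ccdc targets had no role assigned here. For comparison, 5 of the 8 excepted Ccdc genes were targets, and so were 10 of 26 genes that earlier carried a Ccdc number and were renamed (38.5%, 20.2 to 59.4). Neither of these lists is part of the family.

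**Figure D2:**
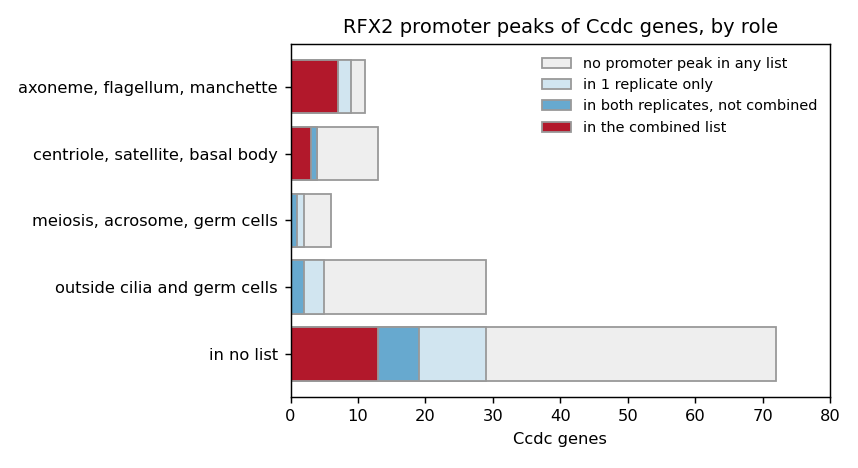
Number of Ccdc genes (horizontal axis) in each role list, divided by where a promoter peak was found. Red is the combined list, dark blue both replicates without the combined list, light blue 1 replicate only and grey no list. The axoneme list holds 7 targets among 11 genes, and the list of roles outside cilia and germ cells holds 0 among 29. Of the other protein-coding genes, 5.18% were targets.

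Ccdc181, which encodes a microtubule-binding protein of motile cilia and the sperm flagellum, had the highest-scoring peak of the family. This peak (chromosome 1, 164274981 to 164276375) held rank 25 of 2726 in the combined list, where it was enriched 34.8-fold over local background at a −log10 p of 328. Its score, on the −log10 scale of the peak caller, was 279 in replicate 1 and 122 in replicate 2. The summit lay 45 bp downstream of the TSS, in an exon outside the coding sequence, and the X-box printed above was centred on it and differed from the palindrome by A13C alone. Substitutions give the palindrome base, its position from the 5′ end and the base of the site.

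The products of Ccdc113 and Ccdc96 are partners in the axoneme of motile cilia, and both genes were RFX2 targets. The Ccdc113 peak (chromosome 8, 95533429 to 95534816) held rank 76 at a −log10 p of 273, and its enrichment of 37.1-fold was the highest at a Ccdc promoter. It scored 220 in replicate 1 and 98.9 in replicate 2, with the summit 4 bp past the TSS. Its X-box carried C5T, A7T and T8A, so that both arms deviated from the palindrome. The Ccdc96 peak (chromosome 5, 36484334 to 36485099) was weaker. It held rank 467, was enriched 14.9-fold at a −log10 p of 156, and scored 105 and 70.7 in replicates 1 and 2. Its summit was 15 bp downstream of the TSS, the best match there had 4 mismatches, and the peak is shared with Tada2b.

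The other 4 targets of the axoneme list spanned a wide range of scores. Ccdc189 encodes a protein of the sperm flagellum, and its peak (chromosome 7, 127587940 to 127589094) held rank 289, enriched 17.9-fold at a −log10 p of 189, with replicate scores of 157 and 74.9. Ccdc34 is needed for the formation of the sperm flagellum, and its peak (chromosome 2, 110016878 to 110018186) held rank 323, enriched 15.7-fold at a −log10 p of 181, with scores of 154 and 88.4. Its summit was 60 bp upstream of the TSS, over an X-box with 3 mismatches, whereas Ccdc189 had none at its summit 24 bp downstream.

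Ccdc146 encodes a microtubule-associated protein of the sperm tail, and its peak (chromosome 5, 21424347 to 21425064) held rank 749, enriched 20.4-fold at a −log10 p of 120, with scores of 79.1 and 50. Ccdc105 encodes a tektin-like protein inside the microtubules of the sperm axoneme, and its peak (chromosome 10, 78752767 to 78753567) held rank 1313, enriched 17.2-fold at a −log10 p of 84.8, with scores of 60.8 and 27.5. Neither had an X-box at the summit, 3 bp downstream of the TSS at Ccdc146 and 36 bp upstream at Ccdc105. The remaining genes of the axoneme list were not targets. Ccdc173 had a promoter peak in replicate 1 only (score 7.72), Ccdc170 in replicate 2 only (4.14), and Ccdc38 and Ccdc172 in neither animal.

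In the centriole list, Ccdc13, whose product is a centriolar satellite protein needed for cilium assembly, stood highest. Its peak (chromosome 9, 121838830 to 121840301) held rank 92 and was enriched 17.7-fold at a −log10 p of 261. The score was 251 in replicate 1 and 138 in replicate 2, where no other Ccdc promoter scored as high. The summit was 34 bp upstream of the TSS, and the X-box carried T8A and A13G. Ccdc157 carried the same pair of changes in a site 15 bp downstream of its TSS.

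Ccdc57 and Ccdc138, both for proteins of the centrosome, were the other targets of that list. The Ccdc57 peak (chromosome 11, 120932267 to 120933381) held rank 218, enriched 15.3-fold at a −log10 p of 209, with scores of 175 and 84.4 and a summit 14 bp downstream of the TSS over an X-box with 3 mismatches. The Ccdc138 peak (chromosome 10, 58497379 to 58498350) held rank 1237 at a −log10 p of 88.1, with scores of 69.5 and 32.8. At 10.8-fold, it had the lowest enrichment of the 23 peaks. Ccdc92, for a protein of the centriole, had a promoter peak in both animals (18.2 and 17.3) but none in the combined list. The other 9 genes of the list, among them Ccdc66, Ccdc61, Ccdc28b and Ccdc78, had no promoter peak in any list.

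Several of the strongest Ccdc peaks lay at genes in no list. The peak at Ccdc184 (chromosome 15, 98167501 to 98168207) held rank 120 and was enriched 32.2-fold at a −log10 p of 242. It scored 209 in replicate 1 and 62.5 in replicate 2, which was the largest ratio between the animals at a Ccdc target (3.34). Its summit was found 621 bp past the TSS, beyond the promoter as defined, so that this gene counts as a target through the flank of the peak. The X-box at the summit matched the left arm of the palindrome fully and differed by C11A and A12G in the right arm.

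The Ccdc175 peak (chromosome 12, 72184191 to 72185794) was the widest (1604 bp) and held rank 212, enriched 27.7-fold at a −log10 p of 211, with scores of 150 and 78.4. Its X-box differed from the palindrome by A7C alone and was centred 7 bp upstream of the TSS. The Ccdc158 peak (chromosome 5, 92675232 to 92676216) held rank 252, enriched 26.8-fold at a −log10 p of 202, with scores of 142 and 91.1, and had its summit 270 bp upstream of the TSS. The Ccdc30 peak (chromosome 4, 119415013 to 119416179) held rank 334, enriched 14.9-fold at a −log10 p of 179, with scores of 130 and 78.7. The other 9 targets in no list were Ccdc157 (rank 431), Ccdc191 (872), Ccdc148 (885), Ccdc180 (944), Ccdc166 (1145), Ccdc126 (1175), Ccdc81 (1421), Ccdc107 (1769) and Ccdc60 (2301).

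The 23 Ccdc peaks had a higher median strength than promoter peaks elsewhere by rank and −log10 p, but each Ccdc interval given here for rank, −log10 p and quartile share holds the value elsewhere, and no test was made. Their median rank in the combined list was 467 (95% interval of the median 252 to 1145), against 1008 (919 to 1094) for 980 other promoter peaks. Their median −log10 p was 156 (92.8 to 202), against 102 (96.8 to 108). Of the 23, 10 (43.5%, exact interval 23.2 to 65.5) were in the top quartile of promoter peaks by −log10 p, against 24.6% elsewhere, and 2 (8.70%, 1.07 to 28) in the bottom quartile, against 25.4%. Fold enrichment was much alike, with a median of 15.7 (14.9 to 20.4, range 10.8 to 37.1) at Ccdc promoters and 15.0 (14.4 to 15.5) elsewhere. The Ccdc peaks were a median of 985 bp wide (809 to 1155), against 878 bp (847 to 898).

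The replicate scores of the 23 targets ran from 30.1 to 279 with a median of 105 in replicate 1, and from 19.6 to 138 with a median of 57.9 in replicate 2. Replicate 1 had the higher score at 22 of them, by a median factor of 1.91 (1.58 to 2.22), close to the factor of 2.09 (2.03 to 2.15) at promoter peaks elsewhere. Ccdc107 was the exception, with 35.2 in replicate 1 and 36.1 in replicate 2. Across the 33 Ccdc genes with a promoter peak in both animals, Spearman's rho of the highest scores was 0.938 and Pearson's r of their logarithms 0.869. These describe points that share 2 libraries, and they leave out the genes with a promoter peak in 1 animal only. They span the 23 targets and the mostly weaker genes outside the combined list. The order within either class was not examined.

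**Figure D3:**
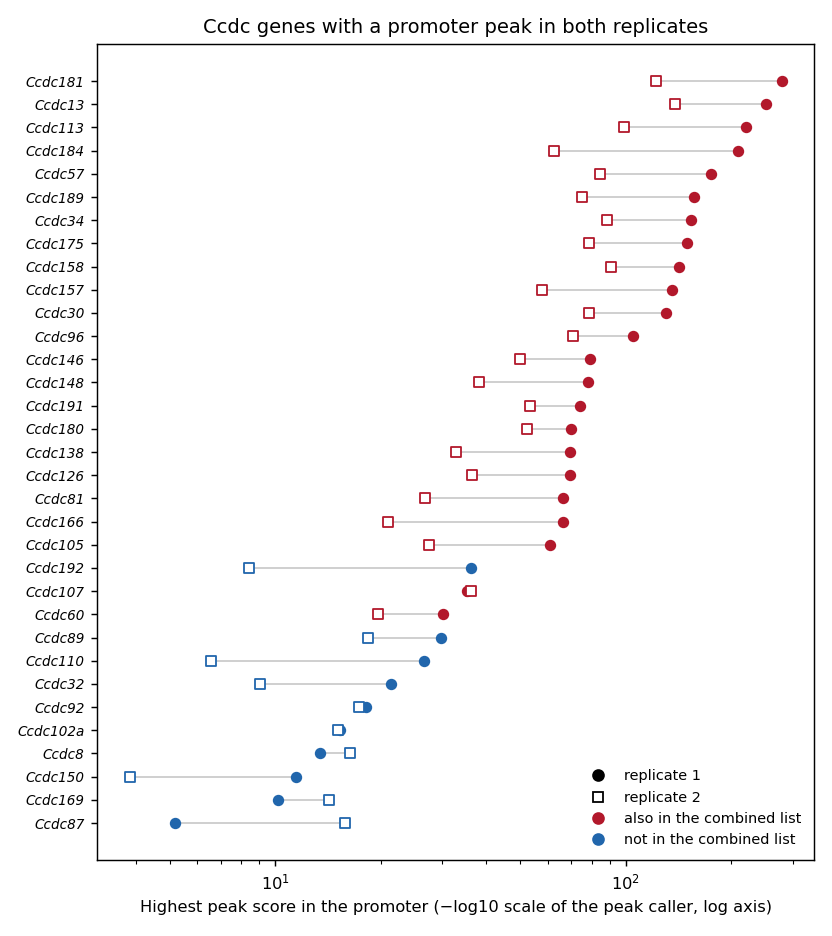
Highest promoter peak score (horizontal log axis, −log10 scale of the peak caller) in replicate 1 (circles) and replicate 2 (open squares) for the 33 Ccdc genes with a promoter peak in both animals, ordered by replicate 1. Targets of the combined list (red) run from Ccdc181 at 279 and 122 to Ccdc60 at 30.1 and 19.6, and of the 10 genes outside that list (blue) Ccdc192, at 36.3 in replicate 1, stands above the targets Ccdc107 and Ccdc60 while the other 9 lie below all targets.

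The 10 genes with peaks in both animals but no combined peak had lower scores, from 5.19 to 36.3 with a median of 16.8 in replicate 1 and from 3.85 to 18.4 with a median of 14.6 in replicate 2. In replicate 2 all 10 were below the lowest target, whereas in replicate 1 the groups overlapped through Ccdc192 (36.3 and 8.44). The closest to the targets in both animals was Ccdc89 (29.8 and 18.4). Ccdc87, for a protein of the acrosome reaction, scored 5.19 and 15.8, Ccdc8, for a subunit of the 3M complex, 13.4 and 16.4, and Ccdc169 10.2 and 14.2. The other members of this class were Ccdc110 (26.6 and 6.55), Ccdc32 (21.4 and 9.08), Ccdc92, Ccdc102a (15.3 and 15.1) and Ccdc150 (11.5 and 3.85).

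Peaks found in 1 animal were weak. The 9 genes with a promoter peak in replicate 1 only had scores from 3.64 to 16.3 with a median of 4.39, the highest at Ccdc73. The 7 genes with one in replicate 2 only had scores from 4.14 to 13.2 with a median of 5.64, the highest at Ccdc74a. Among the genes of meiosis and the acrosome, Ccdc33 had such a peak (8.10 in replicate 2), while Ccdc36, Ccdc62, Ccdc136 and Ccdc155 had no promoter peak in any list.

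The summits at Ccdc promoters lay close to the TSS. Their median position was 0 bp (interval −36.0 to 15.0, range −270 to 621), with 11 summits upstream and 12 at or downstream of the TSS, and promoter peaks elsewhere had a median of −31.0 bp (−38.0 to −27.0), which lies within the Ccdc interval. Measured from the first TSS of the gene in place of the nearest, the medians were 3 bp and −2 bp. The median distance regardless of direction was 27 bp (14 to 50) against 59.5 bp (53.0 to 68.0). Within 100 bp of a TSS lay 19 of the 23 summits (82.6%, 61.2 to 95) and 626 of the 980 others (63.9%, 60.8 to 66.9). By annotation, 12 summits fell in an exon outside the coding sequence, 10 upstream of the gene and 1, that of Ccdc107, in an intron. No such counts for promoter peaks elsewhere stand beside these, so they cannot be called particular to the Ccdc genes.

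**Figure D4:**
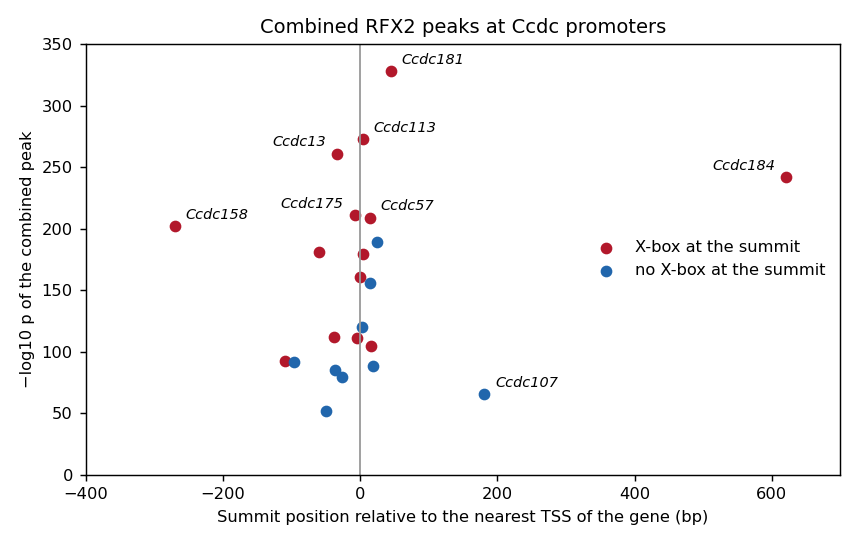
Position of the combined peak summit relative to the nearest TSS of the gene (horizontal axis, bp) and −log10 p of the peak (vertical axis) for the 23 Ccdc targets. Red points have an X-box within the 200 bp around the summit and blue points have none. Most points stand close to 0, Ccdc184 lies at 621 bp, and the 7 highest points all have an X-box.

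An X-box was present at the summit of 14 of the 23 Ccdc peaks (60.9%, 38.5 to 80.3) and of 577 of 980 promoter peaks elsewhere (58.9%, 55.7 to 62.0), and a difference between these shares was not detectable with 23 peaks. In the window 1000 bp to the right, 0 of the 23 had one (exact interval up to 14.8%), and 0.816% of the others. The matches had 1 mismatch at 2 genes, 2 at 6 and 3 at 6, and none equalled the palindrome. All 14 were centred within 15 bp of the summit, at a median distance of 7.5 bp, against 7 bp at promoter peaks elsewhere. The other 9 summits had best matches with 4 or 5 mismatches. No match in a window says only that these letters are not there.

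Read along the gene, the left arm of the palindrome (bases 1 to 7) had fewer mismatches than the right arm at 9 of the 14 sites (64.3%) and more at 4 (28.6%), where promoter peaks elsewhere had 44.2% and 32.2%. A left arm without mismatch was present in 6 sites (42.9%), and a right arm without mismatch in 1 (7.14%), that of Ccdc175. At promoter peaks elsewhere these shares were 29.3% and 21.3%. Bases 1, 4 and 14 matched the palindrome in all 14 sites, and bases 8 and 11 in 9 each. With 14 sites these counts are a description, and those by base have no values elsewhere beside them.

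To see whether the sequence alone set the targets apart, the 1501 bp around the first TSS of every gene were searched with at most 2 mismatches, regardless of peaks. Such an X-box was present in 7 Ccdc promoters (5.34%, 2.18 to 10.7) and in 2.25% of the others. All 7 Ccdc genes were RFX2 targets, namely Ccdc181, Ccdc175, Ccdc13, Ccdc157, Ccdc30, Ccdc158 and Ccdc166, and of the 490 other genes with such an X-box 276 were targets. Read the other way, 30.4% of the Ccdc targets (13.2 to 52.9) and 24.4% of the other targets carried one. Of the 82 Ccdc genes without a promoter peak in any list, 0 had one (exact interval up to 4.40%), and elsewhere 89 of 18300 such genes did (0.486%). At most 3 mismatches were found in 15 of the 23 targets (65.2%, 42.7 to 83.6), in 1 of the 10 genes with peaks in both animals only, and in 8 of the 82 genes without a peak (9.76%, 4.31 to 18.3). Among the other genes they were found in 535 of 1130 targets (47.3%) and in 1002 of 18300 genes without a peak (5.48%). Targets thus carried them more often than genes without a peak in both sets. For the other genes this follows in part from how the palindrome was made, as their peaks were among those it was read from. The Ccdc targets and the Ccdc genes without a peak had a similar G+C content in this window, with medians of 51.2% and 51.9%. Their median ratios of observed to expected CpG were 0.585 and 0.529. Among the other genes this ratio was 0.610 in targets and 0.441 in genes without a peak.

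Combined peaks in the gene body alone had a similar share in Ccdc genes and other genes, with a wide interval on 4 genes. Of the 131, 4 had a combined peak in the gene body and none in the promoter (3.05%, 0.838 to 7.63), against 3.0% of the other genes. These were Ccdc6, Ccdc141, Ccdc92b and Ccdc106. In addition, the targets Ccdc30 and Ccdc148 had a further peak in an intron. All of these peaks had an X-box at the summit, with 2 mismatches at Ccdc92b and Ccdc106 and 3 at Ccdc148. The introns of Ccdc30, Ccdc141 and Ccdc6 held the following X-boxes at the summits of these peaks, shown because that of Ccdc30 is the palindrome without a change.
Ccdc30 (chr4:119404875-119404888, minus strand): gtatggcgGTTGCCATGGCAACagacacaa
Ccdc141 (chr2:77149803-77149816, minus strand): ggaaccaaGTTGCCATAGCAACaggatggc
Ccdc6 (chr10:70111864-70111877, plus strand): actacctgGTTGCCGTGGCTACctgcctat

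Ccdc6, first known as a fusion partner of the RET kinase in thyroid tumours, had the strongest of these. This peak (chromosome 10, 70111106 to 70112491) held rank 125 at a −log10 p of 242, scored 207 in replicate 1 and 81.2 in replicate 2, and lay in an intron 14.8 kb downstream of the first TSS. Its 50-fold enrichment was higher than that of any Ccdc promoter peak. The peak in Ccdc141, a gene of the centriole list, held rank 354, enriched 35.2-fold at a −log10 p of 176, with scores of 154 and 48.3, and lay in an intron 20.8 kb from the first TSS. The second peak of Ccdc30 held rank 565, enriched 32.8-fold at a −log10 p of 141, with scores of 103 and 36.2, so that its fold enrichment exceeded the 14.9 of the promoter peak while its −log10 p was lower. The peak in Ccdc92b ranked 805 with a 25.8-fold enrichment. That of Ccdc106 ranked 830, had its summit just past the end of the gene and met the promoter of U2af2.

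Most Ccdc genes without a combined promoter peak lay far from any combined peak. The median distance from a TSS to the nearest combined summit on the chromosome was 139 kb over these 108 genes, with a range from 3940 bp at Ccdc106 to 1854 kb at Ccdc28a. A summit lay within 10 kb of a TSS at 5 of them. No distances of other genes stand beside these values, so they cannot be called particular to the Ccdc genes.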

How the data were processed

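The authors mapped the reads to GRCm38 with Bowtie 0.12.7, kept reads with a single location, and called peaks against input with MACS2 2.0.10.20130520, per the submitters' processing notes and the supplementary methods. Reads of human origin were removed from a second run of replicate 2 only, and the effect of this on conserved sequence was not tested. Which of the described peak calls was deposited is not stated. The methods also describe a selection of peaks reproducible between the replicates, and whether the combined list is that selection is not stated either. Each peak of the deposited replicate lists has a score on a −log10 scale, of a p-value or q-value. The deposited combined list gives a score, −log10 p, −log10 q, the fold enrichment (a ratio) and the summit. Its names begin with "all", so it was read as a call on pooled reads and shares them with the replicates.

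Genes and TSSs came from GENCODE mouse release M21 and sequence from GRCm38 patch 6, whereas the authors used Ensembl release 70. Groups and replicates follow the sample titles. Overlaps were computed with numpy 2.4.6 and scipy 1.17.1, were the same with bedtools 2.31.1, and were tested on simulated data together with the motif search. Shares carry exact (Clopper-Pearson) 95% intervals and medians order-statistic intervals, both for counting error only. No test was made. By rule, all targets were named, with full values for the 10 highest and for those in role lists. The list of roles outside cilia names 30 genes, of which Ccdc94 is not annotated in this release. The genes, lists and alternatives were chosen with earlier results of these data known.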

Additional observations from a re-analysis of the deposited data

How the results depend on the processing

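Of 29 alternatives, 20 stayed within the factor of 1.5 (counts) or the interval (other values) and 9 moved beyond it. The count of 23 targets stayed between 20 and 23 with the first TSS only, TSSs of protein-coding transcripts, a promoter from 500 bp upstream to 50 bp downstream, summits inside the promoter, the top 50% of the list and symbols without a letter. It moved to 42 with the replicate 1 list and 40 with the replicate 2 list. The 33 genes with peaks in both animals became 40 to 42 when 1 replicate was left out. The 4 genes with a peak in the gene body only became 1 with exons alone, 27 with the replicate 1 list and 18 with the replicate 2 list. In the replicate lists the share of Ccdc genes was then below that of other genes (20.6% against 22.3% and 13.7% against 17.7%). The X-box share at summits was 34.8% with at most 2 mismatches, and 33.9% elsewhere. With 200 bp around the peak centre the share was 39.1%, and 33.0% elsewhere. That 39.1% counts as within the interval, but only just above its lower limit of 38.5%. The 7 promoter sequences with an X-box became 2 with at most 1 mismatch and 25 with at most 3. The median summit position was −75.0 bp with the peak centre in place of the summit, and −70.0 bp elsewhere. Except for the gene body, the Ccdc share was above that of the other genes under each of the 23 alternatives that give both shares. No paired analysis was possible because the inputs have no peak list here. The read depth is unknown, so the limit of detection cannot be given.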
